A study of Mus musculus with 3 samples.

Results

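Prohormone processing and granule protein genes were followed in renin-producing cells sorted from mouse kidney. The set was defined by name and not by measured values, though with earlier results of these data known. It holds the proprotein convertase genes Pcsk1, Pcsk2, Pcsk5 and Furin, the carboxypeptidase gene Cpe, the amidating enzyme gene Pam, the granin genes Chga, Chgb and Scg2, and Scg5, which encodes a chaperone of a convertase. Of the 10 genes 9 had a probe set on the array, 1 each, among 19938 genes measured. Pcsk2 had none and was not analysed here.

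The cells came from adult male mice carrying the Ren1c-YFP transgene, in which cells that express renin are marked by yellow fluorescent protein. All 3 samples form 1 group: the mice drank captopril at 0.5 mg/ml, which blocks angiotensin-converting enzyme, and ate low-salt chow for 2 weeks, after which kidney cortex was digested with collagenase and YFP-positive cells were sorted. The strain is unspecified in the labels, and the samples, replicates 2, 4 and 5, were not pooled. Untreated mice and YFP-negative cells were not analysed here, and the values are levels in sorted cells, not effects of captopril or salt. RNA was amplified in 1 round and hybridised to single-colour Affymetrix arrays. Whether the arrays stand for separate animals is not said in the labels, and the p-values therefore cover only the spread among these 3 samples, which may be technical.

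Peptide hormones are made as longer precursors. Convertases cut them at pairs of basic residues, a carboxypeptidase trims the exposed basic residues, and an amidating enzyme finishes some peptides, while granins help to form the dense granules in which the products are stored. In the juxtaglomerular cell of the kidney, prorenin is cut to renin and stored in dense granules that also carry lysosomal enzymes.

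Signals were log2 values per probe set. An array's background level was the 95th percentile of its signals over 1027 olfactory receptor genes, which came to 6.20, 6.32 and 6.50 in replicates 2, 4 and 5. The height of a gene is its log2 signal minus that level, and a gene was called above background when limma's one-sided test put its mean height above 0 at an adjusted p under 0.05 over all genes. Probe affinity also sets a signal, and reading a gene against the level does not remove it. Heights therefore do not rank genes or lists by transcript amount, and a gene under the level may still be transcribed.

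The processing enzymes Cpe, Pam, Furin and Pcsk5 and the chaperone gene Scg5 were above background, whereas Pcsk1 and the granin genes Chga, Chgb and Scg2 did not pass. That is 5 of 9 measured genes, beside 37.3% of all genes called by the same limma test. The median height was 0.44 log2 units over the 9 genes, and -0.01 over all genes. In a bulk sample of sorted cells, fewer cells with a transcript and less of it per cell cannot be told apart.

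**Figure D1:**
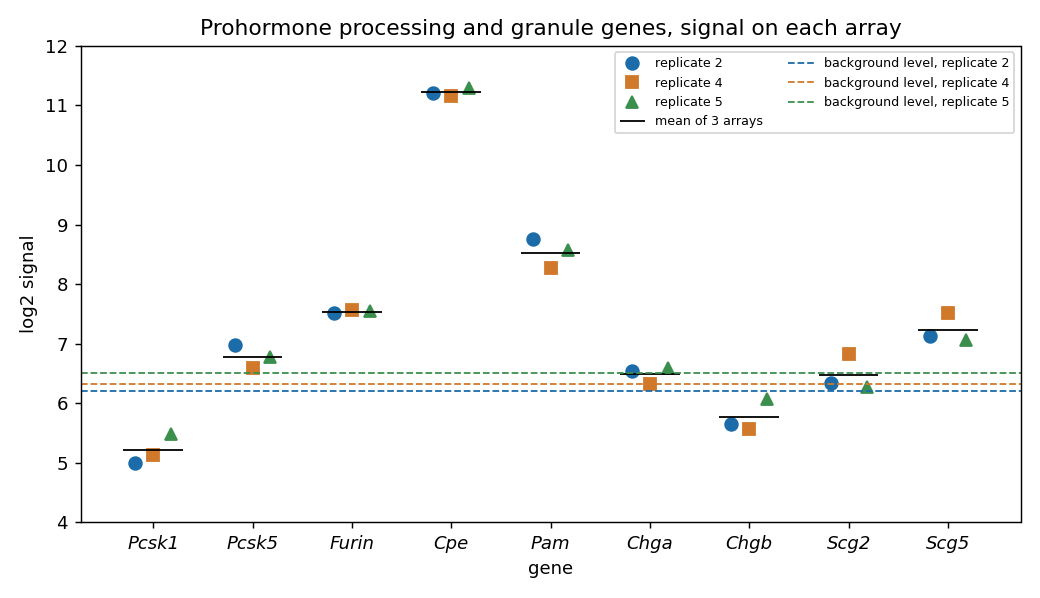
Log2 signal (vertical axis) of the 9 measured genes (horizontal axis) on each of the 3 arrays, with the mean of 3 arrays as a bar and each array's background level as a dashed line. Cpe lies between 11.16 and 11.29, far over the levels of 6.20 to 6.50, whereas Pcsk1 and Chgb lie under their array's level on all 3 arrays.

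Cpe encodes carboxypeptidase E, which removes basic residues from the ends of cut peptides and is found in dense-core granules. Its log2 signals were 11.21, 11.16 and 11.29 in replicates 2, 4 and 5. All 3 arrays were far over background and close to each other. The mean was 11.22 ± 0.07 (SD, n = 3), a height of 4.88 ± 0.20 log2 units (SE, limma adjusted p = 5.18e-07). Cpe was called under all 12 alternatives.

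Pam encodes peptidylglycine alpha-amidating monooxygenase, the enzyme that gives many neuropeptides their carboxy-terminal amide. Its log2 signals were 8.75, 8.27 and 8.57 in replicates 2, 4 and 5. Replicate 2 was the highest array and replicate 4 the lowest, and all lay over their level. The mean was 8.53 ± 0.24 (SD, n = 3), a height of 2.19 ± 0.24 log2 units (SE, limma adjusted p = 0.000102).

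Among the convertases, Furin, which cuts precursors in the Golgi of most cell types, had log2 signals of 7.51, 7.56 and 7.55 in replicates 2, 4 and 5. The 3 arrays differed by 0.05 at most, the smallest difference in the set. Its height was 1.20 ± 0.20 log2 units (SE, limma adjusted p = 0.000786). With the 99th percentile as the level the height was 0.33 and Furin no longer passed (limma adjusted p = 0.244).

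Pcsk5 encodes a convertase with a secreted and a membrane-bound form, and its human product cuts human prorenin in transfected cells. Its log2 signals were 6.97, 6.59 and 6.78 in replicates 2, 4 and 5. All arrays lay over their level, by 0.77, 0.27 and 0.28 log2 units. The mean height of 0.44 ± 0.17 (SE) passed narrowly (limma adjusted p = 0.0474). The call was lost without replicate 2, where the height fell to 0.27 (limma adjusted p = 0.250). It was also lost without replicate 4 (limma adjusted p = 0.0960), although the height rose to 0.53 on the fewer arrays.

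Pcsk1 encodes the convertase that starts the cutting of many prohormones in endocrine granules, such as proopiomelanocortin in the pituitary. Its log2 signals were 5.0, 5.13 and 5.49 in replicates 2, 4 and 5. Every array was more than 1 log2 unit under its own level. The mean height was -1.13 ± 0.10 (SE, limma adjusted p = 1.0), and Pcsk1 passed under none of the 11 alternatives in which it was tested. The promoter of Pcsk1 is shown with those of the granins.

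The granins are acidic proteins that aggregate with hormones in forming granules, and Chga and Chgb are widely used as markers of endocrine cells. Chga had log2 signals of 6.54, 6.32 and 6.60 in replicates 2, 4 and 5. Each array was over its level, by 0.34, 0.0024 and 0.09. Being over the level on all 3 arrays held for 6 of 9 genes of the set and for 41.9% of all genes. The mean height of 0.14 ± 0.15 (SE) did not pass (limma adjusted p = 0.390).

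Chgb had log2 signals of 5.65, 5.56 and 6.08 in replicates 2, 4 and 5, all under their level. Its mean height was -0.58 ± 0.12 (SE, limma adjusted p = 1.0). Scg2, whose product secretogranin II is cut into secretoneurin, had log2 signals of 6.34, 6.82 and 6.27. Replicates 2 and 4 lay over their level and replicate 5 under it. The mean height was 0.14 ± 0.17 (SE, limma adjusted p = 0.492). With the 90th percentile as the level, Chga and Scg2 passed (limma adjusted p = 0.00939 and 0.0214) and Chgb did not.

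Scg5 encodes a secretory chaperone that binds the product of Pcsk2, the convertase gene not analysed here. Its log2 signals were 7.12, 7.51 and 7.06 in replicates 2, 4 and 5. All arrays lay over their level, by 0.92, 1.19 and 0.56. The mean height was 0.89 ± 0.20 (SE, limma adjusted p = 0.00403), and at the 99th percentile it was 0.03 and did not pass (limma adjusted p = 1.0).

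The granin genes and Pcsk1 are textbook targets of cAMP signalling, which is also the main stimulus of renin release, and their promoters are shown because 3 of them carry the cAMP response element and the promoter of Chga its core. The sequences are RefSeq's on build GRCm38.p6, where 9 of the 10 genes of the set were matched, Pcsk2 among them and Cpe not. Each run covers 110 to 11 bases before the gene's start, read 5′ to 3′ on the gene's strand. Capitals mark the element TGACGTCA or its core TGACGT.
Scg2, chr1:79440037-79440136, minus strand: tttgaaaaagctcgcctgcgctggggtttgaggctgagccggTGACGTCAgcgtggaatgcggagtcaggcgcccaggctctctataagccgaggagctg
Chgb, chr2:132781532-132781631, plus strand: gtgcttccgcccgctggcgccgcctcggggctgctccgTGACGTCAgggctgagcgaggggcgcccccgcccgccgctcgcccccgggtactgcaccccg
Pcsk1, chr13:75089747-75089846, plus strand: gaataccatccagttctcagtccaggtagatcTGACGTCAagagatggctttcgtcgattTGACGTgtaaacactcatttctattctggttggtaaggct
Chga, chr12:102554831-102554930, plus strand: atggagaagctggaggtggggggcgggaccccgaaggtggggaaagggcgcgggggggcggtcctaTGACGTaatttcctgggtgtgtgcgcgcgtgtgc

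Windows from 250 bases before to 50 bases after the start were searched on both strands. The element TGACGTCA, which reads the same on both strands, was found in 3 of these 9 matched genes, Scg2, Chgb and Pcsk1. It was in 549 of all 27025 genes with a promoter. Counted by promoter window, it was in 588 of 32851 (1.79%). It began 68, 72 and 78 bases before the start of Scg2, Chgb and Pcsk1. The core TGACGT, which lies within the element, was found in 6 of the 9 matched genes, in 2263 of the 27025 genes and in 7.51% of all windows. Beside those 3 it was in the windows of Chga, at 44 bases before the start, of Scg5, at 175 bases before and 40 after it, and of Furin, at 30 bases after it. The 3 genes with the full element did not pass the test in these samples. Not passing held for 4 of the 9 measured genes of the set and for 12501 of all 19938 genes. Whether the element bears on the signal was not tested. A match of letters is a description and does not show a site in use.

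How many genes passed depended on where the background level was set. With the 99th percentile of the olfactory receptor signals Cpe and Pam were called, 2 of 9 genes of the set beside 16.6% of all genes. At the 90th percentile 7 of 9 were called beside 50% of all genes, with Chga and Scg2 added. A level from vomeronasal receptor genes also gave 7 of 9, beside 65.9% of all genes. A level from keratin-associated protein genes left Cpe alone, 1 of 9 beside 3.56% of all genes.

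**Figure D2:**
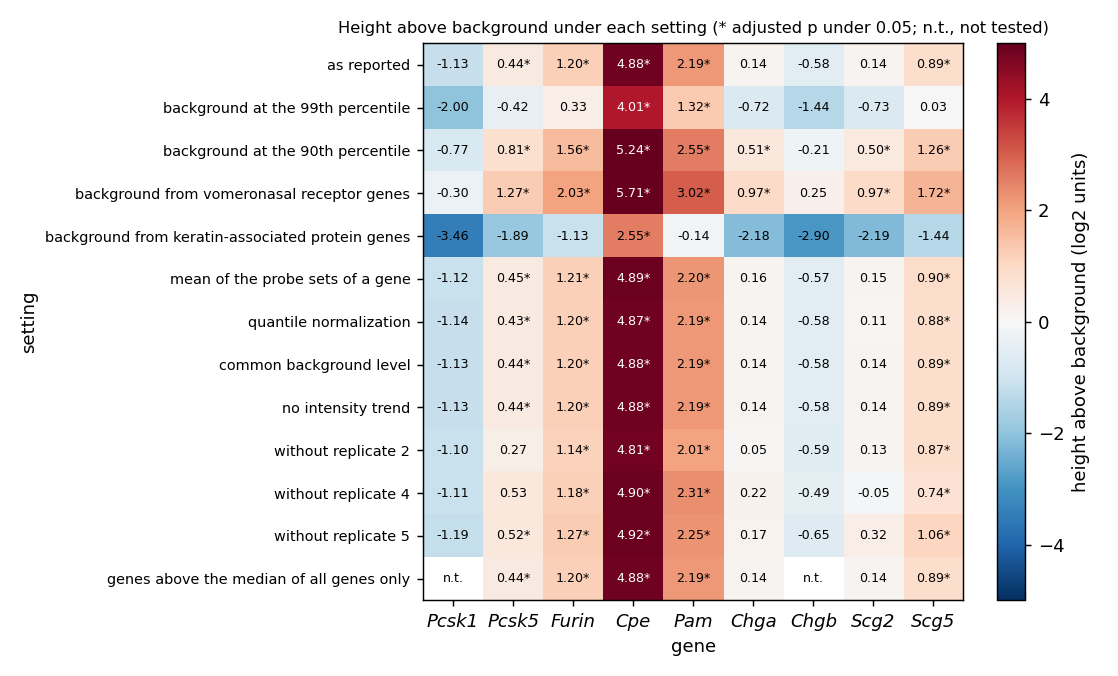
Height above background in log2 units (colour and number) of the 9 genes (columns) under the reported setting and 12 alternatives (rows), with an asterisk where the gene was called at an adjusted p under 0.05. Cpe carries an asterisk in every row, and Pcsk1 and Chgb in none.

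The 9 genes varied between arrays about as much as other genes. The range over the 3 arrays ran from 0.05 to 0.56 log2 units, with a median of 0.45 beside 0.41 over all genes. It exceeded 1 log2 unit in 0 of 9 genes of the set and in 8.66% of all genes. Replicate 5 was the highest array for 4 of the 9 genes, Pcsk1, Cpe, Chga and Chgb, and it was also the highest for 40.8% of all genes and had the highest background level. There 4 of 4 intercalated cell, 8 of 11 neuroendocrine and chromaffin and 4 of 5 macrophage markers exceeded the mean of the other arrays. This held for 0 of 10 endothelial, 0 of 4 thick ascending limb and 1 of 9 proximal tubule markers. Of the renin cell and mural markers 2 of 11 did. It held for 10806 of all 19938 genes and 2419 of 7437 called genes. The part of such cells in the levels of Pcsk1, Cpe, Chga and Chgb was not tested.

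Scg2 and Scg5 were both highest in replicate 4, by 0.52 and 0.42 log2 units over the mean of the other arrays. Markers of the thick ascending limb, a tubule segment, were higher in the same array. In replicate 4 all 4 lay over the mean of the other arrays, by a median of 0.70, and their median log2 signals were 10.54, 11.24 and 10.25 in replicates 2, 4 and 5. All 4 principal cell markers of the collecting duct were also higher there, with a median of 0.51. So were all 4 distal tubule markers, with a median of 0.24, 3 of 4 intercalated cell and 6 of 9 proximal tubule markers. Of the renin cell and mural markers 0 of 11 were, and of the endothelial markers 2 of 10. Over all genes this held for 9221 of 19938, and among genes called above background for 4222 of 7437. Pcsk5 and Pam were highest in replicate 2, by 0.29 and 0.33 over the mean of the other arrays. In that array all 11 renin cell and mural markers lay over this mean, by a median of 0.37. So did 9 of 10 endothelial markers, by a median of 0.84, 8 of 9 proximal tubule and 3 of 4 thick ascending limb markers. It held for 0 of 4 markers in each of the distal tubule, principal cell and intercalated cell lists. Over all genes it held for 9391 of 19938, and among genes called above background for 4699 of 7437. The median log2 signals of the endothelial markers were 8.42, 7.04 and 6.75. The part of these cells in the levels of Scg2, Scg5, Pcsk5 and Pam was not tested.

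**Figure D3:**
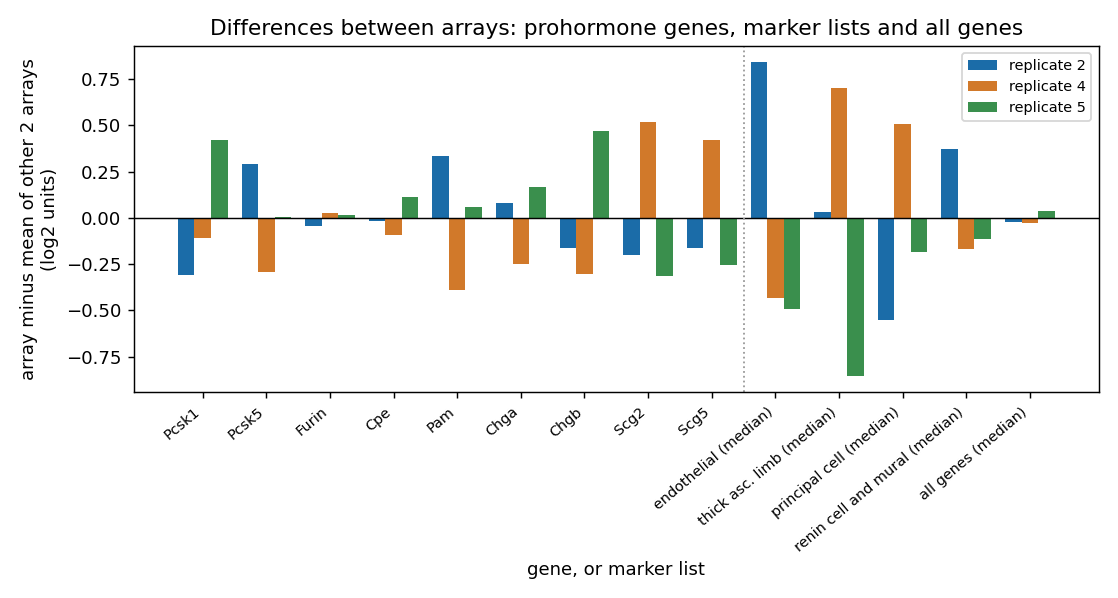
Log2 signal of each array minus the mean of the other 2 arrays (vertical axis), for the 9 genes and, right of the dotted line, the median over 4 marker lists and over all genes. Scg2 and Scg5 are highest in replicate 4 with the thick ascending limb and principal cell markers, and Pcsk5 and Pam in replicate 2 with the renin cell and mural markers and the endothelial markers. The proximal tubule, distal tubule and intercalated cell lists, which also differ between arrays, are not drawn.

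The sorted samples carried mural genes together with transcripts of other kidney cells. All 11 renin cell and mural markers were above background, among them Rgs5 (12.37 ± 0.10) and the connexin 40 gene Gja5 (11.34 ± 0.32; log2 signal, mean ± SD, n = 3), although the renin gene itself was not analysed here. All 9 proximal tubule markers, 4 of 4 thick ascending limb markers, 3 of 4 distal tubule markers, 4 of 4 principal cell, 4 of 4 intercalated cell and 6 of 10 endothelial markers were also called by limma. Median heights were 5.00 for the renin cell and mural, 4.92 for the proximal tubule and 4.33 for the thick ascending limb markers. The proximal tubule gene Kap was at 13.09 ± 0.08. Which cells the levels of the set came from was not tested. Macrophage markers were called in 1 of 5 cases, Tyrobp (limma adjusted p = 0.0456), which was not called when any one array was left out, and podocyte markers in 0 of 3, also at an unadjusted p under 0.05.

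Because granins mark endocrine and chromaffin cells, markers of those cells were read beside them. They were called in 3 of 11 cases (27.3%), beside 37.3% of all genes. The defining genes of catecholamine synthesis, Th and Dbh, had mean log2 signals of 6.29 ± 0.18 and 5.17 ± 0.25 (SD, n = 3) and did not pass (limma adjusted p = 1.0 for both). The genes called were the vesicle protein gene Syp (7.41 ± 0.08) and 2 that were named after their values were seen, Ddc (7.89 ± 0.55), an aromatic amino acid decarboxylase that the proximal tubule also makes, and the monoamine transporter gene Slc18a1 (7.32 ± 0.45). The call of Slc18a1 was lost when replicate 2 was left out (limma adjusted p = 0.0540), which left 2 called markers.

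Other genes of the pathway were called in 27 of 72 cases (37.5%), a share near the 37.3% of all genes. The share called ran from 14.3% to 73.3% over the 6 lists, and no difference between lists was tested.

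Of 10 other peptidases and modifying enzymes 7 were called, with a median height of 1.69. Ctsb, the lysosomal cathepsin B, which cuts human prorenin in vitro, had log2 signals of 12.03, 12.01 and 11.92 in replicates 2, 4 and 5 and a height of 5.64 ± 0.19 (SE, limma adjusted p = 1.70e-07). Cpd, a carboxypeptidase of the trans-Golgi network with the same trimming activity as Cpe, had log2 signals of 10.13, 9.48 and 9.60 and a height of 3.39. Qpct, which forms pyroglutamate at peptide ends, was at 8.70, 9.03 and 9.13, with a height of 2.61, and Cpm, a membrane carboxypeptidase, had a height of 2.15. Ctsl (4.67), Ctsh (1.23) and Rnpep (0.67), an aminopeptidase, were the other genes called, and the call of Rnpep was lost when replicate 4 was left out (limma adjusted p = 0.0921).

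Of the 4 other convertase genes measured, 1 was called. It was Mbtps1, the site-1 protease of the Golgi, with log2 signals of 7.49, 7.04 and 6.77 in replicates 2, 4 and 5 and a height of 0.76 (limma adjusted p = 0.0153). It missed the threshold when replicate 2 was left out (limma adjusted p = 0.0960). Pcsk4, Pcsk6 and Pcsk7 had heights of 0.15, 0.02 and 0.22 and did not pass (limma adjusted p = 0.384, 0.905 and 0.273).

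Of 14 other granin and regulated granule genes 2 were called, with a median height of -0.31. They were Ccdc186 (8.51 ± 0.20), needed for dense-core vesicle biogenesis in worm neurons, and Rab27a (7.07 ± 0.43; log2 signal, mean ± SD, n = 3), a GTPase that docks granules. The call of Rab27a was lost when replicate 2 or replicate 4 was left out (limma adjusted p = 0.0535 and 0.126), which left 1 called gene on the list. Its height was 0.73 on all 3 arrays and 0.77 without replicate 2. Scg3, a granin-binding protein, lay at a height of -2.27, the exocytosis gene Cadps at -1.47, the granin-like Vgf at -0.29 and Pcsk1n, which encodes an inhibitor of the Pcsk1 product, at 0.04, and none of these passed.

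Precursors of peptides were mostly not called. For amidated peptides, the products of Pam, 3 of 14 passed, with a median height of -0.54. They were Vip (8.73 ± 0.18), a vasodilator peptide, Oxt (8.02 ± 0.37), oxytocin, and Npy (7.08 ± 0.17; log2 signal, mean ± SD, n = 3), a vasoconstrictor of sympathetic nerves. Npy missed the threshold when replicate 2 was left out (limma adjusted p = 0.0573). Adm, the gene of adrenomedullin, had a height of -0.43. Of 15 other hormone precursors 3 passed, namely Igf1 (height 1.13), Ghrl (0.66) and Edn1, the endothelin gene (1.22). Edn1 had log2 signals of 8.64, 6.38 and 7.66 in replicates 2, 4 and 5 and was not called when replicate 2 was left out (limma adjusted p = 0.119).

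Proteins known to be matured by furin-like cutting were called in 11 of 15 cases, with a median height of 1.23. The insulin receptor gene Insr had log2 signals of 11.09, 11.04 and 10.83 in replicates 2, 4 and 5 and a height of 4.64 ± 0.23 (SE), while its other probe set had a mean of 8.36. Notch3, a receptor of mural cells, had a height of 2.21, Igf1r one of 1.90, and Atp6ap2, the prorenin receptor, one of 1.60. In replicate 2, 12 of 15 genes of the list lay over the mean of the other arrays. This held for 9391 of all 19938 genes and for 4699 of the 7437 called genes. Bmp4 had log2 signals of 8.75, 7.36 and 6.60 and likewise missed the threshold when replicate 2 was left out (limma adjusted p = 0.116). Vegfc, with signals of 9.26, 6.18 and 6.25, did not pass (limma adjusted p = 0.188). Its height of 0.89 became -0.19 when replicate 2 was left out. Without replicate 4 the height was 1.40 and passed (limma adjusted p = 0.00458), although the heights in replicates 2 and 5 were 3.06 and -0.25. Tgfb1 (height -0.71) and Pdgfb (-0.02) did not pass either. Of the endothelial markers, Pecam1, Cdh5 and Kdr lay 2.20, 1.86 and 0.30 log2 units over the mean of the other arrays in that replicate, and their part in these values was not tested.

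**Figure D4:**
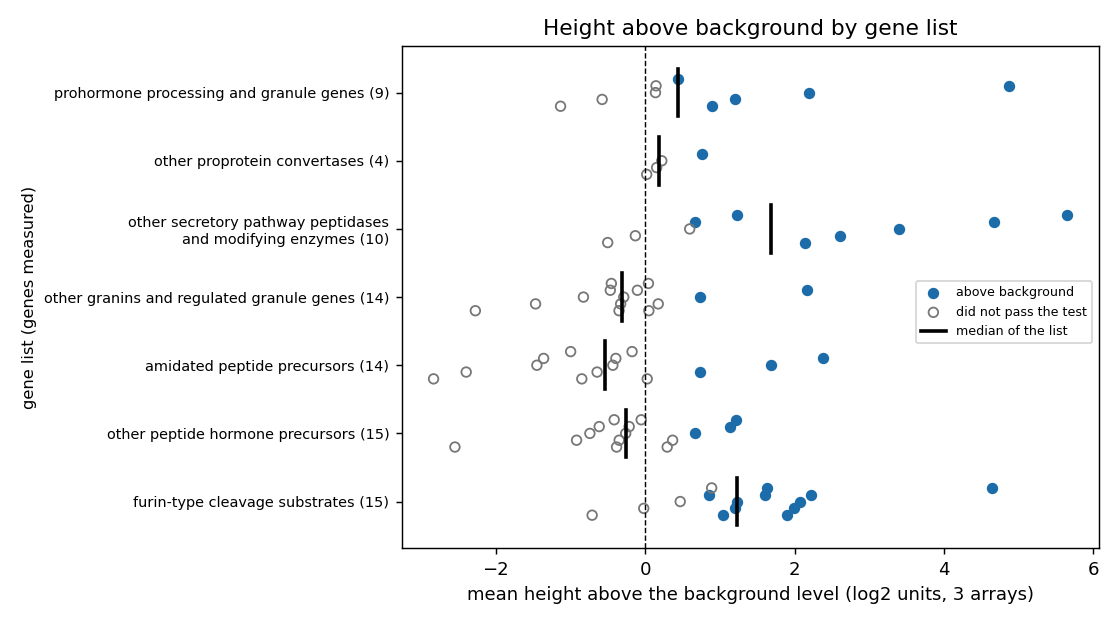
Mean height above background in log2 units over 3 arrays (horizontal axis) for the 9 genes of the set and for 6 lists of related genes (rows); filled points passed limma's test, open points did not, and the bar is the list's median. The medians lie at 1.69 for other peptidases and modifying enzymes and at 1.23 for furin-type substrates, and at -0.31, -0.54 and -0.26 for granule genes, amidated precursors and other hormone precursors.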

How the data were processed

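Values were used as the authors deposited them, as log2 signals, 1 for each probe set on each array. The submitters' processing notes name Affymetrix Expression Console. For the summary method, the normalization and the genome build nothing is given in the sources used here. The log base was read from the range of the values (2.21 to 13.96). The platform annotation gave 1 symbol to 21789 of 35557 probe sets and several to 1621, which were left out. A further 12147 were unnamed here. A gene was represented by its brightest probe set, which gave 19938 genes.

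Each array's level was subtracted and the heights were tested in limma 3.58.1 (R 4.3.3), with an intercept as the only term, a trended eBayes prior, a one-sided p and Benjamini-Hochberg adjustment across all genes. The procedure was checked on simulated heights, with SDs shuffled between genes and the level taken as given. The choice of level was therefore not checked by it. Precision is limited by the number of arrays, 3. With 1 array left out a gene's own spread counts for less beside the prior, so those p-values are not directly comparable with the others. In families that did not set the level, the test called 2 of 167 vomeronasal receptor genes (1.20%) and 10 of 44 keratin-associated protein genes (22.7%). Python 3.11.15, pandas 2.3.3 and numpy 2.4.6 were also used. The genes and lists were chosen with earlier results of these data known. The text could name every gene of the set, any measured gene of the related lists and the first 3 of each marker list, and some of these were left out for length. Ddc, Slc18a1 and Tyrobp fall outside this rule and were named after their values were seen. Alternatives changed the percentile and family behind the level, the probe set rule, the normalization, the variance model, the filter and the arrays used.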

Additional observations from a re-analysis of the deposited data

How the results depend on the processing

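Of 9 genes of the set 5 were above background, beside 37.3% of all genes. This count was also 5 with the mean of probe sets, quantile normalization, a common level and no intensity trend. The shares of all genes were then 37.1%, 37.7%, 38.3% and 37.3%, in that order. A filter on dim genes left Pcsk1 and Chgb untested. Under it 5 of 7 genes of the set were called, beside 81% of the 9969 genes kept. Leaving out 1 array gave 4 to 5 genes of the set, 6051 to 7806 genes in all, 22 to 29 genes of the related lists and 40 to 47 markers. At the 99th percentile 2 genes of the set, 3303 genes in all and 15 of the related lists were called. With the level from vomeronasal receptor genes 13140 genes and 57 of the related lists were called. With that from keratin-associated protein genes 1 gene of the set, 709 genes in all, 3 of the related lists and 19 markers were called. Mean heights then lay under the level for these called genes: at the 99th percentile Pcsk5 (-0.42), Mbtps1 (-0.10), Rnpep (-0.19), Rab27a (-0.14), Npy (-0.12), Ghrl (-0.20) and Tyrobp (-0.48), and with keratin-associated protein genes Pcsk5 (-1.89), Furin (-1.13), Pam (-0.14), Scg5 (-1.44), Mbtps1 (-1.57), Cpm (-0.18), Ctsh (-1.10), Rnpep (-1.65), Ccdc186 (-0.16), Rab27a (-1.60), Oxt (-0.64), Npy (-1.59), Edn1 (-1.11), Igf1 (-1.20), Ghrl (-1.67), Notch3 (-0.11), Atp6ap2 (-0.72), Igf1r (-0.43), Bmp4 (-1.10), Syp (-1.26), Pecam1 (-1.10), Cdh5 (-1.21), Ddc (-0.78), Slc18a1 (-1.35) and Tyrobp (-1.94). Genes with means under the level were called with vomeronasal receptor genes in Vgf (0.54), Adm (0.40), Pdgfb (0.81) and Th (0.78), and at the 90th percentile in Th (0.32). The levels themselves differ by construction, which moves every height alike on an array. The median range of the set between arrays was 0.45, and 0.36 after quantile normalization. No paired analysis was possible because the series holds 1 group. Signals near the level limit what can be said of Pcsk5, Chga and Scg2, whose mean heights were 0.44, 0.14 and 0.14 with SEs of 0.17, 0.15 and 0.17.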
